A study of Mus musculus with 4 samples.

Results

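The 5 connexin genes Gja1, Gjb2, Gjb5, Gjc1 and Gja4 were examined in mouse pluripotent stem cell lines and in mouse embryonic fibroblasts (MEF). They were taken by name from the mouse connexin family, with earlier results of these data known. Each was represented by its single probe set that carried no other gene symbol, so 5 of 5 were measured among 19938 genes in all. Total RNA was measured on 1-colour Affymetrix arrays, with 1 array for each of 4 samples. The iPS lines 178B5 and 492B4, which are induced pluripotent stem cells, and the MEF had a mixed background of DBA/2, C57BL/6 and 129S4. The embryonic stem (ES) line v6.5 had an F1 background (129, C57BL/6). Strain and line origin therefore cannot be told apart in any comparison of iPS with ES. Nor can strain and cell type in that of ES with MEF. The 3 pluripotent lines grew in ES cell medium on SNL feeder cells, a fibroblast line, arrested with mitomycin-C. The MEF grew in DMEM with serum, with no feeder named. Culture and cell type therefore cannot be told apart in any comparison of a line with MEF. No transgene, treatment, age or passage is given in the labels for any sample, and each iPS line is 1 line on 1 array.

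Connexins are membrane proteins that assemble into ring-shaped hemichannels. Hemichannels of neighbouring cells dock to form gap junctions, through which ions and small molecules pass from cell to cell. Which connexins a cell makes sets which molecules pass and which neighbours it can couple to. Fibroblasts are coupled mainly through the product of Gja1, and mouse ES cells and early embryos also form gap junctions.

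The deposited values are log2 values (the base was taken as 2), and each probe set had been centred so that its median over the 4 arrays was 0. A value therefore says how an array stood relative to the others for that gene, and levels of different genes cannot be compared. With 3 lines and 1 MEF array, centring on the median places the lines near 0 and leaves most of a shared difference on the MEF array. In the comparison of the 3 lines with MEF, genes counted as called where limma's adjusted p (Benjamini-Hochberg over all 19938 genes) was under 0.05 and the difference reached 1 log2. The residual spread came from the lines, and MEF, with a single array, was taken to have the same spread. limma then drew each gene's variance toward a value common to all genes. Its p-values and intervals therefore do not rest on the SD of the lines alone. The labels name no repeat cultures of a line, and p-values reflect the spread between these samples alone.

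The labels were checked on marker genes. All 8 pluripotency markers were called higher in the lines, with Dppa5a, Tdgf1 and Pou5f1 differing most from MEF (8.06, 7.22 and 6.30 log2), and all 10 fibroblast markers were below MEF, 6 of them called. Of all genes 3512 (17.6%) were called, 1576 higher and 1936 lower, with a median difference of -0.10 log2. Without iPS 178B5 the number was 1357. No date, slide or batch was available.

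**Figure D1:**
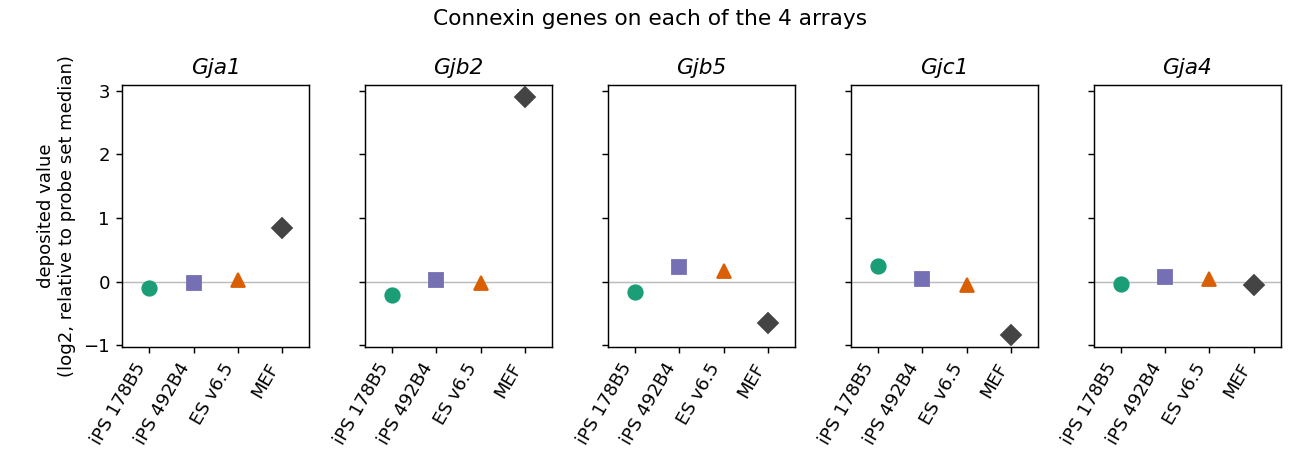
Deposited log2 value, relative to the probe set's median over the arrays, of the 5 connexin genes on the iPS 178B5, iPS 492B4, ES v6.5 and MEF arrays (1 point per array). MEF stands above the lines for Gjb2 (2.91) and Gja1 (0.85), below them for Gjb5 (-0.65) and Gjc1 (-0.85), and close to them for Gja4 (-0.06).

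Of the 5 connexin genes 1 was called between the pluripotent lines and MEF, Gjb2, which was lower in the lines. Gja1 was also below MEF in all 3 lines, while Gjc1 and Gjb5 were above it in all 3, and these 3 genes stayed under the fold minimum. Gja4 differed little between any of the arrays. Over all genes 9.71% were called lower, 7.9% higher and 17.6% in either direction, so 1 of 5 is near the background share. For all 5 genes MEF lay outside the values of the lines, above them for 2 (47.7% of all genes) and below them for 3 (30.1% of all genes), which together make 77.8% of all genes. The members' median difference was 0.08 log2, beside -0.10 log2 over all genes; with each array centred on 10 reference genes instead, these were -0.32 and -0.50 log2.

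Gjb2 encodes connexin 26, a channel of epithelia and of the supporting cells of the inner ear, and mutations of the human gene cause hereditary deafness. Its value was -0.21 in iPS 178B5, 0.02 in iPS 492B4 and -0.02 in ES, against 2.91 in MEF. The 3 lines lay within 0.23 log2 of each other and the nearest of them was 2.89 log2 below MEF. Gjb2 fell by 2.98 ± 0.12 log2 (SD, n = 3 lines; limma adjusted p = 0.00536), 7.86-fold on a linear scale. A smaller difference in size was found for 97.6% of all genes. The fall was called without any one of the lines, at -3.02 to -2.91 log2 (limma adjusted p = 0.00256 to 0.0388). In bulk RNA such as this, fewer cells that express a gene and less of its RNA in each cell cannot be told apart.

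Gja1 encodes connexin 43, the most widespread connexin, found in fibroblasts, heart muscle and early embryos. Its value was -0.10 in iPS 178B5, -0.03 in iPS 492B4 and 0.03 in ES, against 0.85 in MEF. The lines spanned 0.12 log2 and did not overlap MEF. The difference was -0.88 ± 0.06 log2 (SD, n = 3 lines; limma adjusted p = 0.0187), short of the 1 log2 minimum and so not called. The signal in the lines was 0.543 of that in MEF. Without iPS 178B5 the adjusted p was 0.105 and without iPS 492B4 it was 0.0507. With each array centred on the reference genes the difference was -1.28 log2 and was called (limma adjusted p = 0.00555). That setting moved the median of all genes from MEF to -0.50 log2; relative to the median of all genes Gja1 stood at -0.78 log2.

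The upstream sequences of these 2 genes, the members whose signal was higher in MEF than in any line, are shown for the bases before the start of each gene (RefSeq, GRCm38.p6; 250 bases, 5′ to 3′ on the gene's strand), and capitals mark matches to the motifs searched.
Gja1, chr10:56377050-56377299, plus strand: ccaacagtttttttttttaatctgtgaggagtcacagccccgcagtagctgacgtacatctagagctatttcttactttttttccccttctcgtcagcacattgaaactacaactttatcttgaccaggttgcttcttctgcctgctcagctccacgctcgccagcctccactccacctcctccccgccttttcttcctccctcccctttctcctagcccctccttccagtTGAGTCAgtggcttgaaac
Gjb2, chr14:57104703-57104952, minus strand: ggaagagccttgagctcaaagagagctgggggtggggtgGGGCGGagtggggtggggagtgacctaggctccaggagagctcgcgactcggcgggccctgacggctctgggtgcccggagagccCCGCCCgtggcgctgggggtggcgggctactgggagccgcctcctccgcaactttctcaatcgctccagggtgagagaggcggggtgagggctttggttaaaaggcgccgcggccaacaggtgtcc

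Each motif was read on both strands. The AP-1 motif was written TGANTCA. For the GC box the letters searched were GGGCGG. The TATA box was searched as TATAAA, and the octamer of POU factors as ATGCAAAT. The E-box was taken in its palindromic form CACGTG. In Gja1 the capitals are 1 AP-1 motif, which begins 19 bases before the start. The AP-1 pattern is its own reverse complement, so the match has no strand. In Gjb2 they are 2 GC boxes, which begin 211 and 126 bases before the start, the second of them on the other strand. Over 32841 upstream sequences of the same length, 6.75% held the AP-1 motif and 32.7% the GC box. The 2 sequences also differed in composition. That of Gjb2 was 69.2% G and C with 18 CpG dinucleotides, against 50.0% and 6 for Gja1, beside medians of 52.4% and 6 over all of them.

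Gjc1 encodes connexin 45, which acts in the conduction system of the heart, in vascular smooth muscle and in the early embryo. Its value was 0.24 in iPS 178B5, 0.05 in iPS 492B4 and -0.05 in ES, against -0.85 in MEF. All 3 lines were above MEF, by 1.08, 0.89 and 0.80 log2 in that order. The mean difference was 0.92 ± 0.15 log2 (SD, n = 3 lines; limma adjusted p = 0.0273), 1.90-fold on a linear scale, and under the fold minimum. The adjusted p was 0.109 without iPS 178B5 and 0.0651 without iPS 492B4. With reference centring the difference was 0.52 log2, and relative to the median of all genes it was 1.03 log2.

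Gjb5 encodes connexin 31.1, a channel of the epidermis and, in mice, of trophoblast cells of the placenta. Its value was -0.17 in iPS 178B5, 0.23 in iPS 492B4 and 0.17 in ES, against -0.65 in MEF. The mean difference of 0.73 ± 0.21 log2 (SD, n = 3 lines) did not pass limma's test (adjusted p = 0.0785). The lines spanned 0.40 log2, the widest range of the 5 genes, and iPS 178B5 was nearest to MEF at 0.48 log2 above it.

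Gja4 encodes connexin 37, which couples endothelial cells and links the oocyte to its granulosa cells. Its value was -0.04 in iPS 178B5, 0.08 in iPS 492B4 and 0.04 in ES, against -0.06 in MEF. The difference of 0.08 ± 0.06 log2 (SD, n = 3 lines) was not called (limma adjusted p = 0.715), and its 95% interval was -0.30 to 0.46 log2. Its direction turned with reference centring, to -0.32 log2. Centred values do not say whether Gja4 was above background on any array.

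Gjb5 and Gja4 both lie on the minus strand of chromosome 4, and their upstream sequences are set side by side (same source and format; capitals as above).
Gjb5, chr4:127358165-127358414, minus strand: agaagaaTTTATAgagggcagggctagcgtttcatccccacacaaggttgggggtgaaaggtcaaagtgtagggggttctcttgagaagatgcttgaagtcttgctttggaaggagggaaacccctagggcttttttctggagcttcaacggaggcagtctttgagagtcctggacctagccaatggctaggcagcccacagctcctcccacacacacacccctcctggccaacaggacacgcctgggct
Gja4, chr4:127314040-127314289, minus strand: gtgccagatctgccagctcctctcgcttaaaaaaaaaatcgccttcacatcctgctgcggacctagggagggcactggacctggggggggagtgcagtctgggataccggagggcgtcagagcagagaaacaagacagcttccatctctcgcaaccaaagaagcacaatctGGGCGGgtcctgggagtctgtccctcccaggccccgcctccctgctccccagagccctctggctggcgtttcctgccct

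The capitals in Gjb5 are 1 TATA box on the other strand, which begins 243 bases before the start (12.4% of all upstream sequences held this motif), and those in Gja4 are 1 GC box that begins 79 bases before it. Gjb5 had 54.4% G and C and 3 CpG dinucleotides, and Gja4 had 61.2% and 9. None of the 4 connexin sequences held the octamer (1.6% of all) or the E-box (6.02% of all), which says only that these letters are not in this window.

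**Figure D2:**
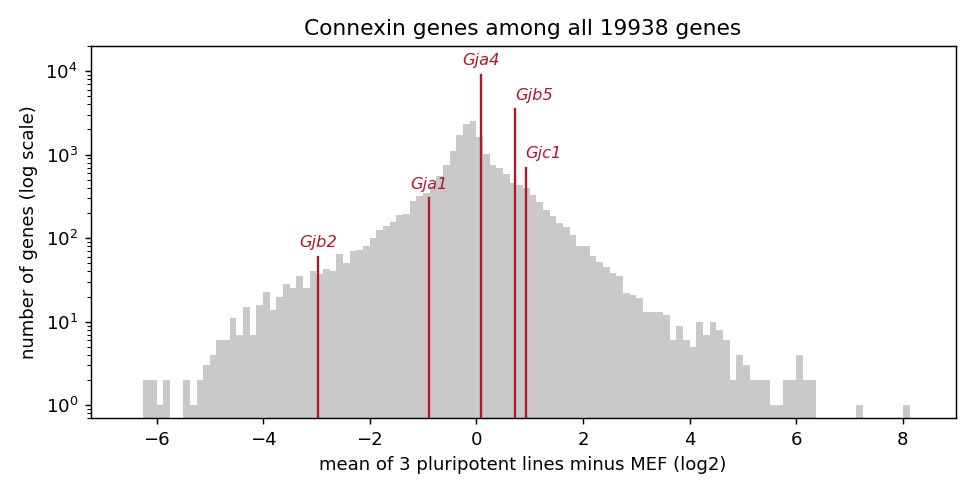
Number of genes (log scale) by the mean difference of the 3 pluripotent lines from MEF in log2, over 19938 genes, with the 5 connexin genes marked by lines whose heights carry no value. Gjb2 lies in the lower tail at -2.98 log2, and Gja1 (-0.88), Gja4 (0.08), Gjb5 (0.73) and Gjc1 (0.92) lie within 1 log2 of 0.

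The comparisons of iPS and of ES with MEF, from a fit with 3 groups, share the MEF array. That of iPS with MEF gives the same values as the lines without ES against MEF, so they are 1 result. In each of them 1 of 5 members was called, Gjb2, which was lower (over all genes 11.2% were called lower and 9.94% higher for iPS against MEF, 21.1% in all, and 10.9% lower and 9.14% higher for ES against MEF, 20% in all). Gjb2 stood at -3.00 log2 in iPS against MEF (SE 0.17; limma adjusted p = 0.00256) and at -2.92 log2 in ES against MEF (SE 0.19; limma adjusted p = 0.00659). Gja1 stood at -0.91 log2 in iPS and -0.82 log2 in ES (limma adjusted p = 0.0156 and 0.0332), and Gjc1 at 0.99 and 0.80 log2 (limma adjusted p = 0.0175 and 0.0482), all under the fold minimum. With each array's median set equal, Gjc1 in iPS was 1.08 log2 and was called (limma adjusted p = 0.0114).

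No member was called between iPS and ES by limma, nor was any of the 19938 genes (0%), of which 3079 had an unadjusted p under 0.05, 0 of the 5 members among them. The residual spread in this fit came from the 2 iPS lines alone and was applied to ES and MEF as well. As in the other fit, limma drew it toward the value common to all genes, so the intervals reflect both. Gja1 was -0.09 log2 in iPS relative to ES, with a 95% interval of -0.48 to 0.30 log2. Gjb2 was -0.08 log2 (-0.54 to 0.39), Gjb5 was -0.14 log2 (-0.75 to 0.47), Gjc1 was 0.19 log2 (-0.25 to 0.63) and Gja4 was -0.03 log2 (-0.44 to 0.38). The widest of these intervals was that of Gjb5.

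Between the 2 iPS lines, 492B4 minus 178B5, the difference was 0.40 log2 for Gjb5, 0.23 log2 for Gjb2, 0.12 log2 for Gja4, 0.07 log2 for Gja1 and -0.19 log2 for Gjc1. There was 1 array per line and so no test. The iPS lines differed by less than for Gjb5 in 88.0% of all genes, and by less than for Gja1 in 28.1%.

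The rest of the family was followed through 11 other connexin genes and 3 pannexin genes, whose products form channels related in shape to connexin hemichannels. None of these 14 genes was called by limma in either direction, against 17.6% of all genes. An unadjusted p under 0.05 was found for 2 of the 14, Gja3 and Gja5, against 37.8% of all genes. All 11 other connexins were below MEF on average, as were 60.2% of all genes, with a median of -0.16 log2 beside -0.10 log2 over all genes and a range of -0.66 to -0.03 log2. With each array's median set equal 10 of the 11 were below MEF, and without iPS 492B4 likewise 10. In 10 of the 11 the difference was under 0.5 log2 in size, as it was in 58.8% of all genes.

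Gja3, chosen here after its values were seen, differed most among them. It encodes connexin 46 of the eye lens. Its value was 0.04 in iPS 178B5, -0.16 in iPS 492B4 and -0.04 in ES, against 0.60 in MEF. The difference was -0.66 ± 0.10 log2 (SD, n = 3 lines; limma adjusted p = 0.0459), under the fold minimum, and -1.06 log2 with reference centring, where it was called (limma adjusted p = 0.0117). Gja3 and Gjb6 are the neighbours of Gjb2 on chromosome 14, on either side of it. Gjb6, which encodes connexin 30 and is co-expressed with Gjb2 in the inner ear, stood at -0.11 log2 (limma adjusted p = 0.64), beside -2.98 log2 for Gjb2. Gja5, which encodes connexin 40 of the heart atria and arterial endothelium, stood at -0.48 ± 0.04 log2 (SD, n = 3 lines; limma adjusted p = 0.0722). The pannexins Panx1, Panx2 and Panx3 stood at -0.48, -0.28 and -0.22 log2.

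**Figure D3:**
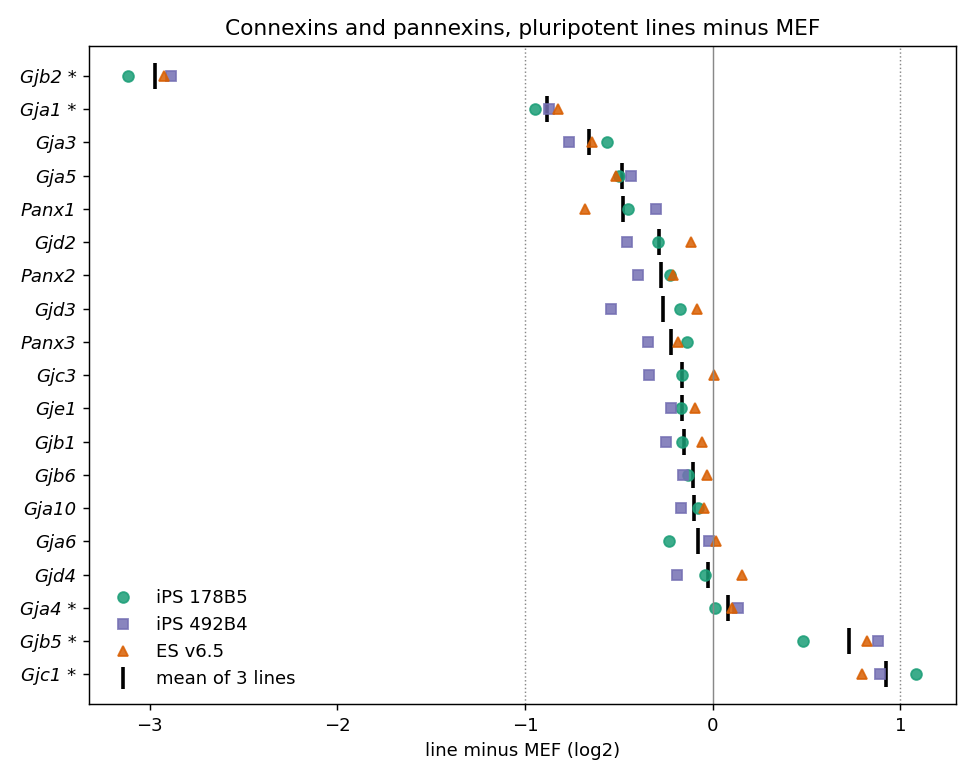
Difference of each pluripotent line from MEF in log2 for the 19 measured connexin and pannexin genes, ordered by the mean of the 3 lines (black bars), with the 5 described genes marked by asterisks and dotted lines at 1 log2 on either side of 0. Gjb2 lies apart at -2.98 log2, and the 14 other genes range from -0.66 to -0.03 log2.

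Genes for proteins that bind, move or modify connexins were counted from a list of 28, of which 25 were measured. In the lines 2 were called higher and 5 lower (28% of the 25, against 17.6% of all genes), with a median of -0.39 log2. Prkca, a kinase that phosphorylates connexin 43, fell by 2.88 ± 0.24 log2 (SD, n = 3 lines), and Dbn1, drebrin, an actin-binding partner of connexin 43, fell by 2.33 ± 0.46 log2. The kinase gene Akt1 fell by 1.52 ± 0.23 log2. Ubqln4, whose product guides connexin 43 to the proteasome, rose by 1.53 ± 0.27 log2, and Ezr, which links membrane proteins to actin, rose by 1.48 ± 0.17 log2. The limma adjusted p of these 5 genes ranged from 0.00596 for Prkca to 0.02 for Dbn1.

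The count of partner genes was 7 of 25 as deposited. In the settings given here it moved in the same direction as the count over all genes, but not in proportion. Without iPS 178B5 it was 2 (1 higher, 1 lower), while 6.81% of all genes were called. Dbn1, Akt1 and Ezr were then not called, at -2.21, -1.62 and 1.52 log2 (limma adjusted p = 0.069, 0.0514 and 0.0571). Without ES it was 11 (3 higher, 8 lower), with 21.1% of all genes called, and with reference centring it was 12 (2 higher, 10 lower), with 23.4%. Tjp1, the scaffold protein ZO-1 that binds the tail of connexin 43, was not called at 0.96 ± 0.25 log2 (SD, n = 3 lines; limma adjusted p = 0.0513), and was called without ES at 1.10 log2 (limma adjusted p = 0.00998). Ccn3, Cav1 and Cask, which were lower in the lines, were likewise not called, at -3.34, -4.31 and -2.03 log2. Without ES they were called, at -3.97, -5.24 and -2.38 log2. Tjp1 and these genes were chosen here after their values were seen.

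Genes of adherens junctions and desmosomes, the adhesive contacts next to which gap junctions form, were all measured (24 of 24). In the lines 5 were called higher and 1 lower (25%, against 17.6% of all genes), with a median of 0.06 log2. Cdh1, E-cadherin, was called 5.87 log2 higher, and Dsg2, a desmosomal cadherin, rose by 2.80 ± 0.24 log2 (SD, n = 3 lines). The plakophilin genes Pkp2 and Pkp4 rose by 1.58 ± 0.27 and 1.48 ± 0.06 log2. Cdh2, N-cadherin, fell by 2.76 ± 0.66 log2. The limma adjusted p of these 5 genes ranged from 0.00211 for Cdh1 to 0.0284 for Cdh2.

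Without iPS 178B5, where 6.81% of all genes were called, the junction count was 3 (3 higher, 0 lower), and Cdh2, Pkp2 and the desmoplakin gene Dsp were not called (limma adjusted p = 0.079, 0.0521 and 0.0826). With reference centring 4 junction genes were higher and 5 lower, and the median was -0.35 log2.

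**Figure D4:**
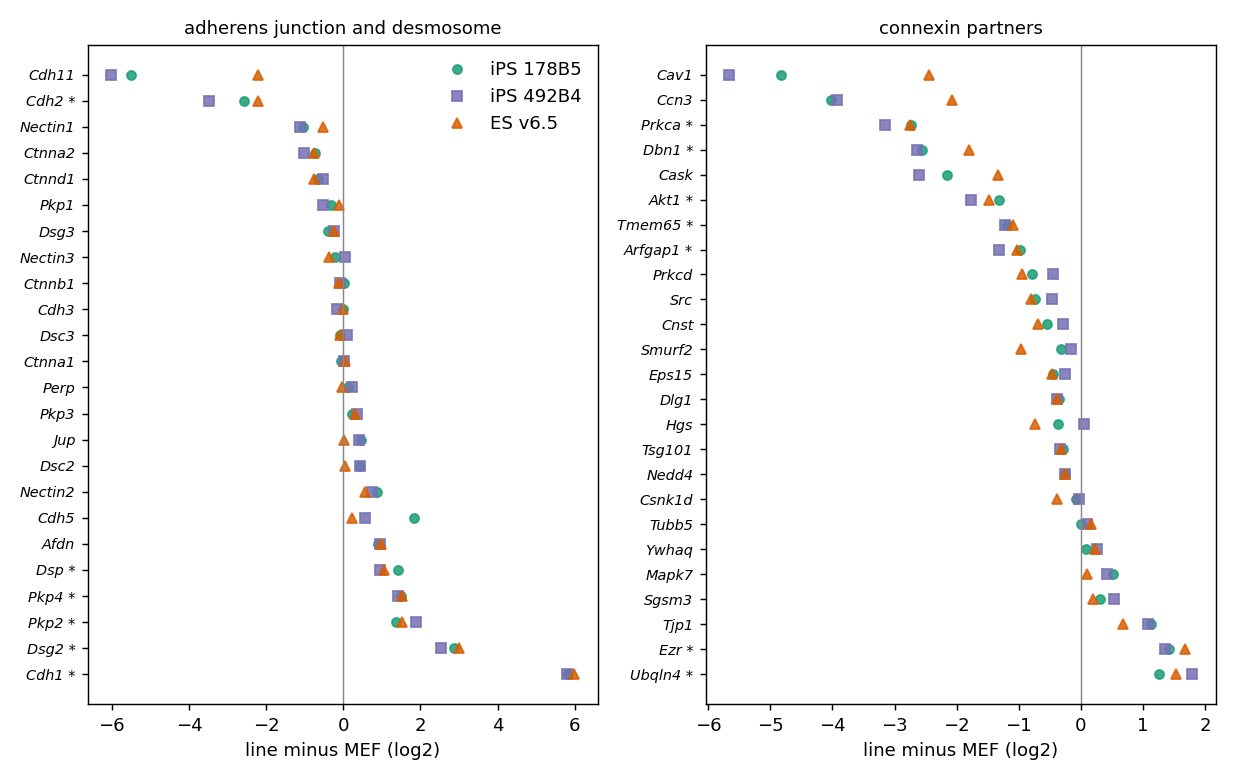
Difference of each pluripotent line from MEF in log2 for 24 adherens junction and desmosome genes (left) and 25 connexin partner genes (right), ordered by the mean of the 3 lines, with asterisks on called genes. Cdh1 (5.87 log2) and Dsg2 (2.80 log2) lead the rises on the left, and Prkca (-2.88 log2) is the lowest called gene on the right.

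The lines grew on fibroblast feeders, so fibroblast markers were read beside the connexins that were high in MEF. The median of the 10 fibroblast markers was -0.87 in iPS 178B5, -0.95 in iPS 492B4 and 0.67 in ES, against 3.07 in MEF. On the ES array 9 of the 10 stood above both iPS lines, against 47.7% of all genes. Postn, Prrx1 and Col1a2 stood at -5.21, -5.15 and -4.76 log2 in the lines relative to MEF, and of these only Col1a2 was called. ES was also above both iPS lines for 9 of the 11 other connexins and for 1 of the 5 described connexins, Gja1. Over the 3 lines Gja1 spanned 0.12 log2 and Gjb2 0.23 log2. The fibroblast markers spanned 0.20 log2 (Fn1) to 4.02 log2 (Prrx1), with a median of 1.68 log2. These spans are not on a like scale, because the genes differed from MEF by unlike amounts. The difference was -0.88 log2 for Gja1 and -2.98 log2 for Gjb2, and the markers' median was -3.38 log2. The number of fibroblast markers called lower was 6, with 2 without iPS 178B5 and 10 without ES. How much of the connexin signal in the lines came from feeder cells was not tested.

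Markers of other cell types in which these connexins are known were also counted. Their counts stand beside 7.9% of all genes called higher and 9.71% called lower. Of 5 smooth muscle markers 3 were called lower in the lines, among them Cnn1 at -4.13 log2 and Tagln at -3.48 log2, and Acta2 at -3.28 log2 and Des at 0.89 log2 were not called, beside 0.92 log2 for Gjc1. The median of these markers was -0.12 in iPS 178B5, -0.45 in iPS 492B4 and 0.12 in ES, against 2.76 in MEF. Of 8 endothelial markers 2 were higher and 1 lower. Pecam1, also made by ES cells, stood at 4.23 log2, Emcn at -1.89 log2 and Tek, not called, at 1.19 log2, beside 0.08 log2 for Gja4. Without iPS 178B5 1 endothelial marker was higher and 0 lower.

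Of 7 trophoblast markers 3 were higher and 1 lower, with Tfap2c at 3.33 log2, Ascl2 at 2.34 log2 and Gata3 at -1.76 log2, beside 0.73 log2 for Gjb5. Without iPS 178B5 2 were higher and 0 lower. Of 6 keratinocyte markers 1 was higher, Sfn at 3.46 log2, and Lor at 0.67 log2 and Trp63 at -0.37 log2 were not called. Of 7 primitive endoderm markers 5 were above MEF, with a median difference of 0.84 log2, and 0 were called higher. Gata4 stood at 2.26 log2 and Gata6 at 1.23 log2, and 1 marker was called lower, Pdgfra at -2.05 log2. Without ES 3 of them were higher, and without iPS 492B4 0 were lower. Their median was 1.02 in iPS 178B5, 0.32 in iPS 492B4 and -0.94 in ES, against -0.50 in MEF. Each of the 5 connexins spanned at most 0.40 log2 over the lines. This span does not measure the part of these cell types, because most of the connexins differed from MEF by under 1 log2. The part of these cell types in the connexin values was not tested.

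**Figure D5:**
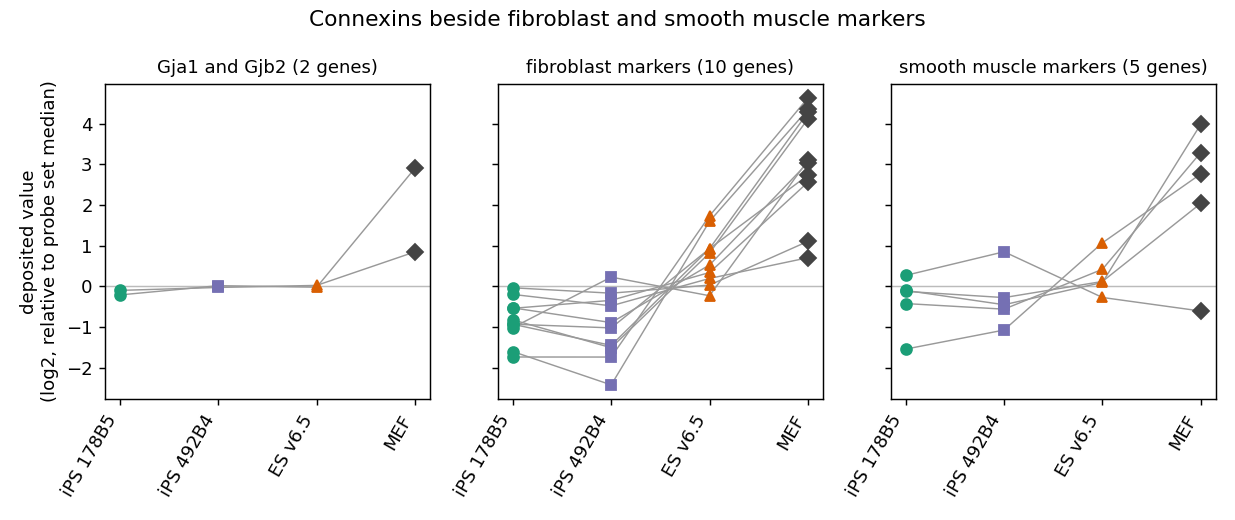
Deposited log2 value, relative to the probe set's median, on the iPS 178B5, iPS 492B4, ES v6.5 and MEF arrays for Gja1 and Gjb2, for 10 fibroblast markers and for 5 smooth muscle markers, with thin lines joining the values of 1 gene. Gja1 and Gjb2 lie close to 0 on all 3 lines, where centring on the median places a shared difference from MEF. The fibroblast markers have a median of 0.67 on ES and -0.87 and -0.95 on the iPS lines.

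Other genes were searched for the patterns most like those of the 5 connexins, by the root mean square distance of the 4 deposited values. With 4 arrays, of which MEF carries most of the variation, a small distance is a description only. Nearest to Gjb2 were Aldh1l2, a mitochondrial folate enzyme, Pon3, a paraoxonase, and Sncg, a synuclein, at 0.04, 0.05 and 0.06 log2, and 6 genes lay within 0.1 log2 of it. Nearest to Gja1 were Dctn4, a dynactin subunit, Fermt2, a kindlin of integrin adhesions, and Osbpl9 at 0.01, 0.02 and 0.02 log2, with 274 genes within 0.1 log2. Nearest to Gjb5 were Nrm, Plekhg5 and the zinc transporter gene Slc30a2, at 0.02, 0.02 and 0.03 log2 (72 genes within 0.1 log2). Nearest to Gjc1 were Ofd1, a centriole protein, Tmem177 and Noxred1, each at 0.04 log2 (78 genes). For Gja4, whose values were close to 0 on every array, 2288 genes lay within 0.1 log2, the nearest being Slc7a12, Hepacam and Gad2 at 0.01 log2 each.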

How the data were processed

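The authors deposited 1 table of log2 values for 28853 probe sets on 4 arrays, made with GCRMA per the submitters' processing notes; neither its version nor the log base is stated in those notes. The median of each deposited row over the arrays was 0 within 5e-07, so the table held differences and no levels, and no filter on low signal was possible. Of the probe sets, 21789 had 1 gene symbol in the platform annotation and were averaged per gene; 1621 had several and 5443 none. The gene identifiers of 21698 matched the GRCm38.p6 gene table. Some members of the connexin family are not reported here.

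All 19938 genes entered linear models in limma 3.58.1 (R 4.3.3). The 3 lines against MEF had 2 residual degrees of freedom, and a fit of MEF, iPS and ES had 1. With the variance drawn toward the value common to all genes, the total degrees of freedom were 4.39 and 3.99. On simulated data of 19938 genes for the lines against MEF, limma called 68% and 56% of genes made lower or higher by 2.5 log2 and 38% and 48% of those changed by 1.5 log2 (50 genes each), with 2 false calls. In the simulation only 50 genes were changed for each size, whereas 17.6% of all genes were called in the data. The adjusted p depends on that share, so the simulated rates need not hold for these data. The number of arrays limits the precision. The 5 connexins and the gene lists were chosen with earlier results of these data known. Genes were named by rule: the 5 connexins, called genes of the family (at most 8), the 5 largest calls of the partner and junction lists, up to 3 per marker list, and the 3 genes most like each connexin. Beyond the rule, Gja3, Gja5, Gjb6, the pannexins, Tjp1, Ccn3, Cav1, Cask, Dsp, Fn1 and Des were named after their values were seen. Alternatives covered array scaling, probe set choice, a range filter at 0.5 log2, robust moderation, the fold minimum and each line left out.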

Additional observations from a re-analysis of the deposited data

How the results depend on the processing

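The call of Gjb2 held under all 11 alternatives, from -3.38 to -2.90 log2 (limma adjusted p at most 0.0388), and no member was called between iPS and ES under any alternative run. Not all alternatives could have changed the call of Gjb2. It has 1 probe set, so the choice of probe set left its value unchanged, and dropping the fold minimum cannot undo a call. The range filter and robust moderation moved only its adjusted p. With reference centring, the number of connexins called was 2 against MEF for the lines together, for iPS and for ES, 3 in the family of 19 and 12 among the partners; the reference genes' median was 0.07 in iPS 178B5, 0.08 in iPS 492B4 and -0.03 in ES, against -0.36 in MEF. The split of all called genes was then 1040 higher and 3618 lower, against 1576 and 1936 as deposited and 1700 and 1730 with equal array medians. Equal array medians gave 2 called connexins for iPS against MEF. With no fold minimum 3 connexins passed in each comparison with MEF (23.8% of all genes in that of the lines together), and 4 in the family. Under these settings the share of all genes was counted for the lines together only (23.4% with reference centring). The counts for iPS and for ES under these settings have no such share beside them and are not read as a result about connexins. Gja4 turned to -0.32, -0.36 and -0.23 log2 with reference centring (lines, iPS and ES against MEF) and to 0.013 log2 for iPS minus ES with equal medians; the cause was not tested. With 1 line left out, the counts ranged from 1 to 1 for the connexins and for the family, from 2 to 11 for the partners, from 3 to 8 for the junction genes and from 1357 to 4216 for all genes. Each such fit has fewer samples. No paired analysis was possible because each line has 1 array and the labels name no pairs of samples across the groups. Counts of marker lists without a line, and the scaling of the difference between the iPS lines, were added after seeing the data; that difference moved by less than the spread of the lines. The range filter left out Gja4.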
